A study of Mus musculus and Mus musculus
Oryx dammah with 30 samples.

Results

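Kti12 and 5 subunits of the Elongator complex (Elp2, Elp3, Elp4, Elp5 and Elp6) were followed in mouse NT embryos. They were taken by gene name from the deposited FPKM tables, FPKM being fragments scaled by exon length and by the size of the library. These are 6 of the 55810 genes that at least 1 of the tables listed, and all 6 were listed in each of the 3 mouse tables.

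Elongator is a protein complex that starts the modification of uridine at the wobble position of many tRNAs, which helps the ribosome read the matching codons. Elp3 is the enzyme of its catalytic part and Elp2 a scaffold there, while Elp4, Elp5 and Elp6 form a ring of ATPase-like proteins that binds tRNA. Kti12 is an ATP-binding partner of Elongator that is needed for its activity in yeast, and the study chose it as a candidate marker of transcriptional reprogramming.

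Embryos were made from C57BL/6 oocytes and DBA/2 sperm, and 2 cells of C2C12, an immortalized myoblast line from a C3H mouse, were fused with each of them. All groups were kept in 0.1 μg/mL demecolcine, which arrests embryos at G2/M phase, and were cultured for 24 h after NT. DNA replication was still under way or ahead in the recipients that received cells at 40 or 21 hpi. In the first experiment four-cell embryos received the cells at 46 hours post insemination (hpi) and were cultured without or with α-amanitin, a toxin that blocks RNA polymerase II, with 3 libraries in each group. The groups DR and D, with 3 libraries each and no α-amanitin, come from NT to four-cell embryos before or after DNA replication, at 40 or 46 hpi, and the labels do not say which letter stands for which. Two-cell embryos received cells at 21 hpi (early) or 30 hpi (late) and were cultured without or with α-amanitin, with 6 libraries each. The columns of the two-cell table carry the names NT, R, Am and RAm with 3 libraries each, and those with Am in the name were read as α-amanitin. No label says which of the column sets NT and Am, or R and RAm, holds early and which late embryos. Each library was a pool of 3 embryos in the first experiment, 4 in the replication experiment and 5 at the two-cell stage. RNA of the embryo and of the C2C12 nuclei is summed in each value, and in such bulk libraries fewer cells of a type and less RNA per cell cannot be told apart.

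Between 1136771 and 3101002 reads per library were counted in the four-cell table, between 2603946 and 19181387 in the replication table and between 4712268 and 10503779 in the two-cell table. Of 10 embryo and oocyte markers 9 or 10 had reads in every library. Of 10 myoblast markers 3 to 9 had reads, and they summed to 4.54 to 241 FPKM over the libraries, against 1483 to 16101 FPKM for the embryo and oocyte markers. Myog was listed at 0 in all two-cell libraries and Col1a1 in all four-cell libraries, and cumulus and granulosa markers summed to at most 2.69 FPKM. The RAm libraries stood apart at the two-cell stage. Their embryo and oocyte markers summed to 1483 to 3377 FPKM, against 6914 to 8073 FPKM in Am, and they had reads on 20573 to 22351 genes, against 23573 to 24309 in Am. The two-cell results are therefore also given for the NT and Am columns alone. Markers moved with α-amanitin there as well, without overlap, since embryo and oocyte markers summed to 8481 to 12348 FPKM in NT and myoblast markers to 76.5 to 241 FPKM in NT against 54.8 to 70.9 FPKM in Am. In R the embryo and oocyte markers summed to 7452 to 9116 FPKM. The part of these shifts in the two-cell results was not tested.

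Kti12 is an intronless gene at chr4:108847785-108849413 on the plus strand (GRCm38, GENCODE vM21). It lies in an intron of Txndc12, which runs in the same direction, and 835 of its exonic bases overlap A730015C16Rik, a protein-coding gene on the opposite strand. The replication table gave A730015C16Rik reads that came to 22.2 to 27.0% of those of Kti12, against 0 to 0.816% in the four-cell table, and the two-cell table did not list it. The Kti12 reads of the replication table were fractional in 6 of 6 libraries. Whether the counting used strand is not given in the sources used here, so levels of Kti12 are compared within a table only.

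RefSeq lists upstream sequence (GRCm38.p6) for Kti12, Elp4, Elp5 and Elp6, with 2 entries for Elp5, and has no entry for Elp2 and Elp3. The 30 bases directly before the RefSeq start of Kti12, the 73 bases directly before that of Elp4 and 231 bases upstream of the annotated Elp6 exon are shown because the 3 genes differed in their values under α-amanitin. Capitals mark matches, on either strand, to the letters CCGGAAG (an ETS-type motif) or CCAAT (the CCAAT box). The RefSeq start of Kti12 lies downstream of the GENCODE start given above, so the Kti12 piece, at chr4:108847827-108847856 on the plus strand, falls inside the GENCODE exon of Kti12 and inside A730015C16Rik. The pieces of the other genes lie outside every annotated exon, that of Elp4 at chr2:105904565-105904637 on the minus strand and that of Elp6 at chr9:110304942-110305172 on the plus strand.
Kti12: tttctCTTCCGGttcctgCCGGAAGttgac
Elp4: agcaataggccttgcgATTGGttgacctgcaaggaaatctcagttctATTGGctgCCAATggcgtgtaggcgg
Elp6: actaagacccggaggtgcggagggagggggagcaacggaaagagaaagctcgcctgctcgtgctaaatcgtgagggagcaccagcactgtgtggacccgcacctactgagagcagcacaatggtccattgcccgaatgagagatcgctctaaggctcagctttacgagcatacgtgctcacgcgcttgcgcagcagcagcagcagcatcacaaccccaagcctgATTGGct

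Kti12 held 2 ETS-type matches, 1 on each strand, within 25 bases before its RefSeq start, which lies inside the GENCODE exon, and such letters were in 6.91% of all 32851 upstream windows of 250 bases. Elp4 held 3 CCAAT matches, and Elp6 and 1 Elp5 entry held 1 each, in letters that 33.8% of all windows contain. None of the windows of these 4 genes held the GC box (the letters GGGCGG), which was in 32.7% of all windows. Nor did they hold the TATA box (the letters TATAAA), the palindromic NRF1 motif or the G-rich letters GGGGAGGG (a ZFP281-type motif), which were in 12.4%, 0.782% and 9.69% of all windows. These letters were chosen with the sequences in view, and a match is a description of the window only. The study reported predicted sites of the transcription factor ZFP281 in a much longer stretch upstream of Kti12. It also reported lower Kti12 after knockdown of Zfp281. The windows of 250 bases leave out most of that stretch, so the missing match does not bear on those sites.

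In four-cell NT embryos Kti12 and Elp3, the catalytic subunit, were lower with α-amanitin, while Elp2, Elp4 and Elp5 did not pass the test. Kti12 was at 76.8, 82.2 and 38.3 FPKM without α-amanitin (libraries S15, S17 and S7), and at 31.9, 7.02 and 6.95 FPKM with it (S16, S18 and S8). The lowest untreated library stood just above the highest treated one, and S16 was well above the other treated libraries. The change was 2.31 on the log2(FPKM + 1) scale (SE 0.58, adjusted p = 0.0357 by limma).

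Elp3 was at 9.94, 8.37 and 16.3 FPKM without α-amanitin and at 1.29, 1.76 and 0 FPKM with it. The groups lay far apart, the treated libraries holding 12, 6 and 0 reads against 68, 46 and 106. The log2 change was 2.71 (SE 0.51, adjusted p = 0.0154, limma), so that Elp3 and Kti12 also passed the 4-fold criterion that the study used. With these 2 called, 2 of the 6 members were higher without α-amanitin, against 11.1% of the 9884 genes tested, or 6.2% with the 4-fold criterion. The study took Kti12 as a candidate from genes it had called between these same groups, in transcripts assigned to C3H. The call of Kti12 here is therefore not independent of that choice.

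Elp6, of the tRNA-binding ring, was at 19.6, 19.4 and 20.6 FPKM without α-amanitin and at 9.66, 9.50 and 6.57 FPKM with it. The untreated libraries were nearly equal to each other and all stood above the treated ones, but the log2 difference of 1.14 (SE 0.32) had an adjusted p of 0.0520 by limma and missed the threshold. The groups of Kti12, Elp3 and Elp6 did not overlap, 3 of the 6 members with each untreated library above each treated one, as for 27.6% of all genes tested. For each of these 3 the exact permutation test over libraries, two-sided, gave p = 0.1, the smallest that 3 against 3 libraries allow.

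Elp5, the most abundant of the 6 per length, was at 121, 165 and 116 FPKM without α-amanitin and at 124, 155 and 56.5 FPKM with it. Apart from S8 the treated libraries were as high as the untreated ones. Its log2 difference was 0.36 with a 95% interval of -0.49 to 1.21. Elp2, a scaffold, was at 18.7, 18.2 and 19.7 FPKM without and 14.1, 23.3 and 11.5 FPKM with α-amanitin, with a log2 difference of 0.26 and an interval of -0.53 to 1.04. Elp4, of the ring, was at 5.42 to 8.73 FPKM without and 5.31 to 9.54 FPKM with it, with a log2 difference of -0.09 and an interval of -0.98 to 0.79. In each of these 3 genes the treated and untreated libraries overlapped. The four-cell libraries list 0 spike-ins, so their FPKM are shares of a library. A fall common to most genes would not show in such shares. Embryo and oocyte markers moved with the groups, summing to 8749 to 9927 FPKM without and 12202 to 16101 FPKM with α-amanitin, and their part in these differences was not tested.

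**Figure D1:**
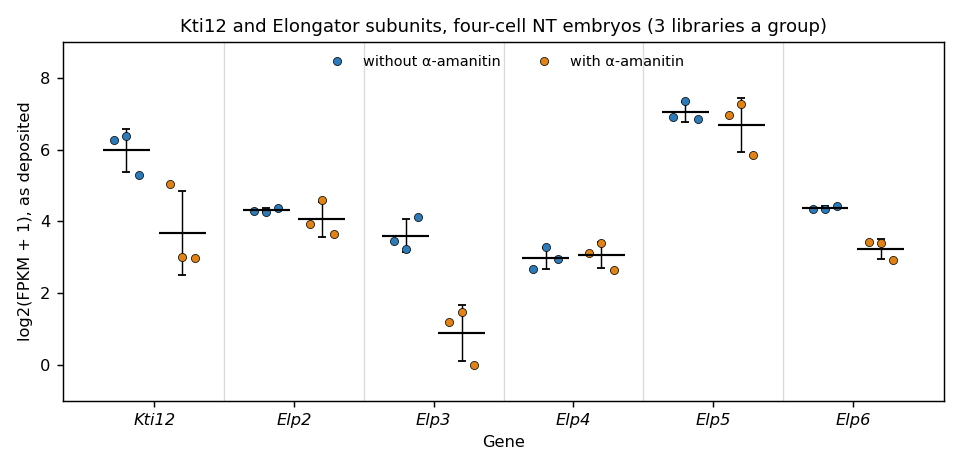
log2(FPKM + 1) of the 6 genes in each library of four-cell NT embryos without (blue) and with (orange) α-amanitin, 3 libraries a group, with the mean (line) and SD (bar). The 2 groups are apart for Kti12, Elp3 and Elp6 and overlap for Elp2, Elp4 and Elp5.

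The ranking of the members by FPKM, which is per length, differed between the groups. Without α-amanitin it was Elp5 (134 ± 26.9 FPKM, SD, n = 3), Kti12 (65.8 ± 23.9), Elp6 (19.9 ± 0.652), Elp2 (18.9 ± 0.766), Elp3 (11.5 ± 4.21) and Elp4 (6.95 ± 1.67). With α-amanitin Elp5 was again highest at 112 ± 50.3 FPKM, followed by Elp2 (16.3 ± 6.22), Kti12 (15.3 ± 14.4), Elp6 (8.58 ± 1.73), Elp4 (7.54 ± 2.13) and Elp3 (1.02 ± 0.910). Kti12 thus went from the second to the third place and Elp3 to the last. Elp6 and Elp2, and Elp3 and Elp4, could not be separated within their spread in the untreated group, nor, among neighbours in the treated group, could Elp2 and Kti12, Kti12 and Elp6, or Elp6 and Elp4.

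The median log2 change of the 6 members was 0.75, beside 0.37 over all genes tested. Among 11 genes that act with Elongator in wobble uridine modification, such as the tRNA thiolation subunit Ctu2 and the methyltransferase partner Trmt112, 9 were tested, 0 passed and the median was 0.03, beside 11.1% of all genes called higher. The limma test gave no gene of this list an unadjusted p under 0.05. Dph3 is in this list and also among 7 genes of diphthamide synthesis, a modification of elongation factor 2. Of these 7, 1 passed, the methyltransferase Dph5, a share near that of all genes. Dph5 was at 8.31 to 9.22 FPKM without and 1.73 to 3.09 FPKM with α-amanitin (log2 change 1.48, SE 0.39, adjusted p = 0.0404, limma). The median log2 change of the 7 was 0.96.

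Of 43 other tRNA modification genes tested, 5 were higher without α-amanitin and 0 lower, with a median of 0.73, so that their share was also near the 11.1% of all genes. Trmt10c, a methyltransferase of mitochondrial RNase P, had the smallest p and was at 30.8 to 70.5 FPKM without and 0 to 7.20 FPKM with α-amanitin. Trmt12, of wybutosine synthesis, was at 1.47 to 3.32 FPKM without α-amanitin and listed at 0 in each treated library. Nsun6, a cytosine methyltransferase, was at 1.75 to 3.69 FPKM without and 0 to 0.773 FPKM with it. In the other direction the 3 smallest p belonged to Dus3l, Yrdc and Lage3, and none of these passed (adjusted p = 0.267, 0.327 and 0.473, limma).

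The four-cell calls of Kti12 and Elp3 were not equally stable. Kti12 passed in 3 of 12 alternative settings, with an adjusted p between 0.0069 and 0.141 by limma, and Elp3 in 8 of 12, between 0.0166 and 0.0803. Kti12 missed the threshold without library S15, S17, S7, S18 or S8 (adjusted p = 0.140, 0.141, 0.0797, 0.101 and 0.0813, limma) and Elp3 without S15, S17 or S7 (0.0659, 0.0612 and 0.0803), while over all these settings the log2 changes lay between 1.96 and 2.99 for Kti12 and between 2.27 and 4.13 for Elp3, the last with a pseudocount of 0.1.

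At the two-cell stage Kti12 was lower with α-amanitin in each of the column sets and passed the test in 24 of 24 alternative settings, while Elp5 and Elp6 fell in the R and RAm columns and did not pass in the NT and Am columns. Kti12 was at 68.7, 54.1 and 21.6 FPKM in NT1, NT2 and NT3, and at 11.1, 10.1 and 9.60 FPKM in Am1, Am2 and Am3. It was at 79.6, 60.2 and 58.9 FPKM in R3, r1 and r2, and at 0.175, 1.36 and 0 FPKM in RAm1, RAm2 and RAm3. NT3 was the lowest of the 6 untreated libraries and still above all 6 treated ones.

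After scaling to the 47 spike-in RNAs found in every library, the log2 change of Kti12 was 4.75 (SE 0.68, adjusted p = 5.65e-05, limma). The exact permutation test over the 12 libraries, two-sided, gave p = 0.00216, the smallest that 6 against 6 allow. Within NT and Am alone the log2 change was 2.73 (SE 0.57, adjusted p = 0.0066, limma), and without the spike-in scaling it was 1.98 (SE 0.41, adjusted p = 0.019, limma). Within R and RAm alone it was 6.77 (SE 0.32), or 5.57 (SE 0.36) without the scaling. Over all two-cell libraries the 6 members were all called higher without α-amanitin, but so were 71.4% of 17196 genes, and the median log2 change of all genes was 1.49 (0.67 without the scaling and 0.23 with median-of-ratios scaling). Fewer members were called with median-of-ratios scaling. Over the alternative settings Elp2 passed in 23 of 24, Elp3 in 20 of 22, Elp4 in 14 of 24, Elp5 in 21 of 24 and Elp6 in 22 of 24.

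Elp5 was at 130, 179 and 77.3 FPKM in NT and at 146, 119 and 110 FPKM in Am, so that the 2 sets of libraries overlapped. In R it was at 238, 206 and 192 FPKM, against 7.24, 6.69 and 6.25 FPKM in RAm, with no overlap and little spread. The log2 change was 0.77 (SE 0.45, adjusted p = 0.194, limma) within NT and Am and 6.62 (SE 0.26, adjusted p = 6.49e-07, limma) within R and RAm. On FPKM as deposited the difference within NT and Am was -0.03, with a 95% interval of -0.74 to 0.68.

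Elp6 behaved in the same manner. It was at 31.0, 27.9 and 17.6 FPKM in NT and at 28.3, 17.3 and 16.1 FPKM in Am. It was at 32.5, 51.9 and 36.6 FPKM in R and at 1.24, 0.655 and 2.35 FPKM in RAm. Within NT and Am the values overlapped and the log2 change of 1.08 (SE 0.49) did not pass (adjusted p = 0.106, limma), whereas within R and RAm it was 5.63 (SE 0.27, adjusted p = 8.6e-07, limma).

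Elp2, the scaffold, was at 2.43 to 3.86 FPKM in NT, 0.0338 to 1.99 FPKM in Am, 3.10 to 4.36 FPKM in R and 0 to 1.23 FPKM in RAm, and its untreated and treated libraries did not overlap. Its log2 change was 1.49 (SE 0.45, adjusted p = 0.0284, limma) within NT and Am and 2.89 (SE 0.26) within R and RAm. On FPKM as deposited the change within NT and Am no longer passed (adjusted p = 0.138, limma).

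Elp3 was at 2.26, 1.65 and 2.06 FPKM in NT, from 47 to 53 reads a library, and 0 reads were counted in each of Am1, Am2 and Am3. Put at a floor of 3 reads in each Am library, Elp3 was at least 12.2-fold higher in NT. Its log2 change within NT and Am was 1.82 (SE 0.36, adjusted p = 0.0057, limma). In R it was at 0.720, 1.14 and 0.0682 FPKM, and in RAm it was listed at 0 in 2 libraries and at 4.29 FPKM in RAm3, from 90 reads. With that library the highest of all 12, the R and RAm columns gave too few values for the filter and were not tested alone.

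Elp4 was at 0.803 to 1.77 FPKM in NT, 0.582 to 1.95 FPKM in Am, 0.954 to 2.92 FPKM in R and 0 to 2.63 FPKM in RAm, and untreated and treated libraries overlapped in either column set. It passed over all libraries (log2 change 0.91, SE 0.35, adjusted p = 0.0267, limma), but not within NT and Am (0.52, SE 0.41, adjusted p = 0.331, limma) and not on FPKM as deposited (0.14, SE 0.33, adjusted p = 0.745, limma). With median-of-ratios scaling its difference was -0.30. Within R and RAm it was called at 1.29 (SE 0.46, adjusted p = 0.0259, limma) after spike-in scaling and not on FPKM as deposited.

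**Figure D2:**
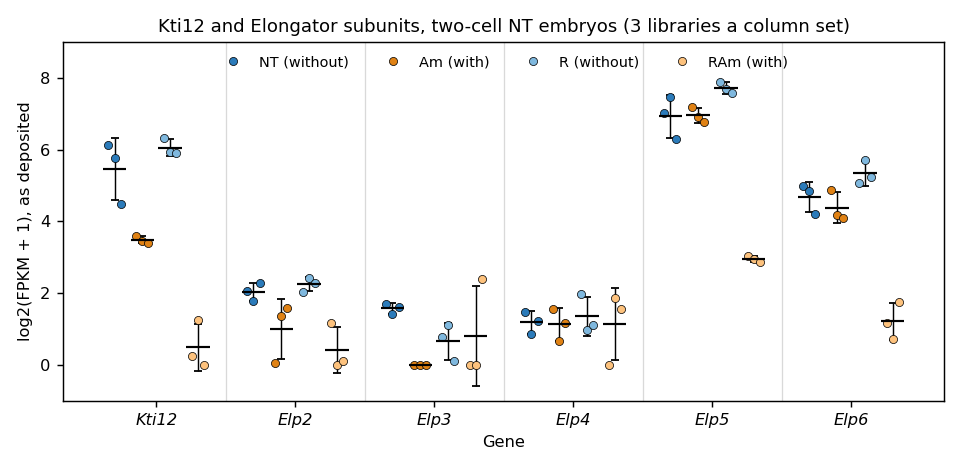
log2(FPKM + 1) of the 6 genes, as deposited, in each two-cell library, by column set: NT and R without α-amanitin (blue and light blue), Am and RAm with it (orange and light orange), 3 libraries each, with the mean (line) and SD (bar). Kti12 is lower in Am and RAm than in NT and R, whereas Elp5 and Elp6 overlap between Am and NT and lie far lower in RAm than in R.

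Kti12 and Elp2 were the 2 of 6 members with each of the 6 untreated libraries above each of the 6 treated ones, as were 16.3% of all genes tested on FPKM as deposited. In all, 3 of the 6 members (Kti12, Elp2 and Elp3) were called higher without α-amanitin within NT and Am, where 29.4% of 14285 genes were, and 5 of the 5 members tested within R and RAm, where 80.7% of 14387 genes were. The difference between the column sets was itself tested, with the interaction of α-amanitin and column set in limma. The fall under α-amanitin was larger in R and RAm by 5.85 log2 units for Elp5 (SE 0.57, adjusted p = 6e-06), 4.56 for Elp6 (SE 0.58, adjusted p = 3.62e-05), 4.03 for Kti12 (SE 0.72, adjusted p = 0.000426) and 1.39 for Elp2 (SE 0.52, adjusted p = 0.036). These are 4 of 6 members called, where 50.5% of all genes tested were called with a larger fall, and the median difference was 1.42 over all genes.

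Elp3 and Elp4 did not pass that test (log2 differences -1.27 and 0.78, adjusted p = 0.11 and 0.316, limma). The differences of Elp5, Elp6 and Kti12 passed in all 15 alternative settings, with lowest values of 3.72, 2.99 and 3.10, whereas that of Elp2 passed in 4 of 15. The column set goes with the libraries RAm1 to RAm3 that stood apart in their embryo and oocyte markers and numbers of genes, and the part of these in the result was not tested. Recipient stage, early or late, and any other property of the column sets cannot be told apart.

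**Figure D3:**
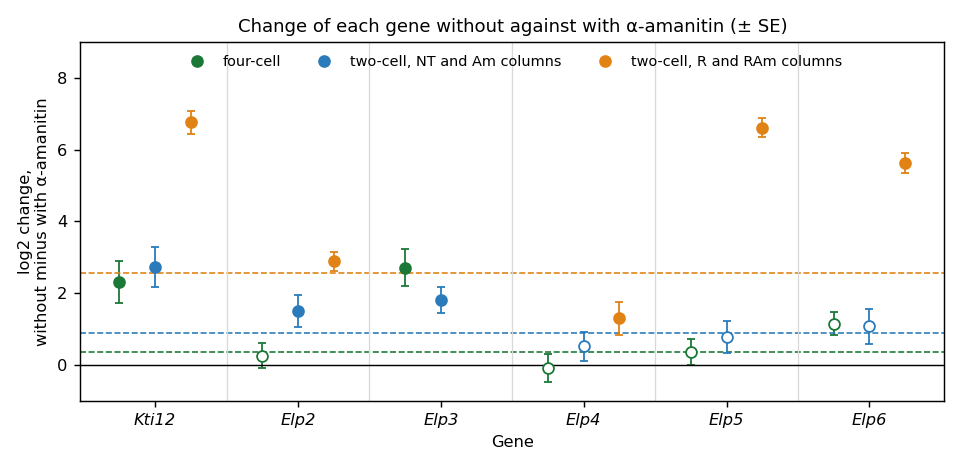
log2 change (without minus with α-amanitin) of each gene with its SE, in four-cell embryos (green, FPKM as deposited), in the two-cell NT and Am columns (blue) and in the two-cell R and RAm columns (orange, both scaled to spike-ins). Filled points passed an adjusted p of 0.05, dashed lines give the median of all genes tested in each comparison, and Elp3 was not tested in R and RAm. Kti12 is filled in all 3, and Elp5 and Elp6 are filled in the R and RAm columns alone. The four-cell changes are not on the spike-in scale of the two-cell ones.

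Ranked by FPKM, Elp5 was again the highest member in untreated two-cell embryos (170 ± 57.6 FPKM, SD, n = 6), followed by Kti12 (57.2 ± 19.6) and Elp6 (32.9 ± 11.3). Elp2, Elp4 and Elp3 followed at 3.46 ± 0.690, 1.5 ± 0.773 and 1.32 ± 0.837 FPKM, of which Elp4 and Elp3 could not be separated within their spread. Their order turned between the column sets, with Elp3 at 1.99 ± 0.312 and Elp4 at 1.31 ± 0.487 FPKM in NT, and at 0.642 ± 0.539 and 1.68 ± 1.07 FPKM in R (n = 3 each). Among detected protein-coding genes of a library, Elp5 lay between the 96.2 and 98.8 percentile in NT, R and Am and between 80.8 and 83.0 in RAm. Kti12 lay between 88.8 and 95.6 in NT and R, between 80.3 and 80.9 in Am and between 22.8 and 54.1 in RAm1 and RAm2, and was listed at 0 in RAm3. The two-cell table was built with an Elp2 length of 6276 bases, against 2789 in the other tables, so the level of Elp2 is not compared between them.

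In the other lists nearly every gene was called over all two-cell libraries, where 71.4% of all genes were: 11 of 11 wobble uridine genes, 7 of 7 of diphthamide synthesis and 49 of 51 other tRNA modification genes tested were higher without α-amanitin. Their medians were 2.23, 2.26 and 2.10, against 2.77 for the 6 members and 1.49 for all genes. Within NT and Am alone, where 29.4% of all genes were called, 7 of 11, 4 of 6 and 14 of 45 genes tested were called, with medians of 1.42, 1.49 and 1.10, against 1.29 for the 6 members and 0.88 for all genes. Ppp6c, a phosphatase catalytic subunit, had the smallest p of the first list and was at 18.5 to 42.5 FPKM in the 6 libraries without and 0 to 7.82 FPKM in the 6 with α-amanitin, followed by the tRNA thiolation subunit Ctu1, which fell from 1.95 ± 0.764 to 0.0907 ± 0.133 FPKM (SD, n = 6 each). Mocs3, Csnk1d and Csnk1e came next, with log2 changes of 2.23, 2.06 and 2.64. Within NT and Am alone these 5 genes also passed, with log2 changes of 2.54, 1.75, 1.52, 1.33 and 1.99, though the deposited values of Mocs3 overlapped.

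Of the diphthamide genes Dph2, Dph7, Dph1, Dph5 and Dph3 had the smallest p, with log2 changes of 2.54, 2.86, 2.26, 2.23 and 2.55. Dph3 is counted in the wobble uridine list as well. Within NT and Am alone Dph2, Dph7, Dph5 and Dph3 passed, at 1.85, 1.89, 1.59 and 1.39, with overlapping deposited values for Dph5, and Dph1 was below the filter. Trmt10c, which had the smallest p of the other tRNA modification genes in four-cell embryos, also had it here, at 34.2 ± 5.52 FPKM without and 2.92 ± 2.63 FPKM with α-amanitin (log2 change 4.48, SE 0.50, and 3.32, SE 0.50, within NT and Am alone). Trmt61a and Trmt13, methyltransferases of adenosine and of ribose, followed at 2.71 and 2.34, or 1.88 and 2.03 within NT and Am alone. The single tested gene of this list with a log2 difference below 0 was Nsun3, a mitochondrial cytosine methyltransferase, at 0.065 to 1.57 FPKM without α-amanitin, 1.00 to 1.64 FPKM in Am and 4.47 to 6.66 FPKM in RAm as deposited (log2 difference after spike-in scaling -0.02, adjusted p = 0.97, limma).

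In the replication experiment 0 of the 6 members and 0% of 14570 genes passed the test between DR and D, while 88 genes had an unadjusted p under 0.05. Kti12 was at 104, 53.5 and 77.7 FPKM in DR1, DR2 and DR3, and at 46.5, 50.8 and 29.3 FPKM in D1, D4 and D5. As deposited, each DR library was above each D library, though DR2 and D4 were close. The log2 difference of the deposited values was 0.86 (SE 0.33), with an unadjusted p of 0.033 and an adjusted p of 0.788 by limma, and the exact permutation test, two-sided, gave 0.1. Embryo and oocyte markers also differed without overlap, summing to 3397 to 4070 FPKM in DR and 4588 to 5742 FPKM in D, and so did the reads counted, 2603946 to 4252278 in DR and 6059974 to 19181387 in D. The part of these in the difference was not tested.

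Elp2 was at 38.0, 25.3 and 24.6 FPKM in DR and at 14.7, 24.4 and 21.5 FPKM in D, which also did not overlap as deposited but lay closer (log2 difference 0.52, SE 0.29). Each DR library was thus above each D library for 2 of the 6 members, as for 8.21% of all genes tested. Elp3 was at 4.86 to 10.6 and 2.15 to 9.03 FPKM, Elp4 at 3.61 to 5.44 and 4.75 to 6.76 FPKM, Elp5 at 63.5 to 113 and 59.5 to 94.9 FPKM, and Elp6 at 20.8 to 24.3 and 14.2 to 21.4 FPKM in DR and D. These 4 overlapped between the groups. Their log2 differences on deposited values ran from -0.27 for Elp4 to 0.42 for Elp6.

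On the spike-in scale used for the test, the difference of Kti12 was -0.81 with a 95% interval of -5.44 to 3.83, and those of the other members ran from -1.11 to -1.74, beside a median of -1.41 over all genes. The direction thus turned with the scaling for Kti12, Elp2, Elp3, Elp5 and Elp6. The scale factors of the 19 spike-ins ranged from 0.0937 to 5.60 between these libraries, and within DR from 0.364 to 4.01, so that a difference of several-fold in either direction was not detectable. None of the wobble uridine, diphthamide and other tRNA modification genes passed here either, and the smallest p of the last list belonged to Lcmt2, Dus4l and Nsun3 (log2 differences -1.50, -1.75 and -1.97, each with an adjusted p of 0.713 by limma).

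**Figure D4:**
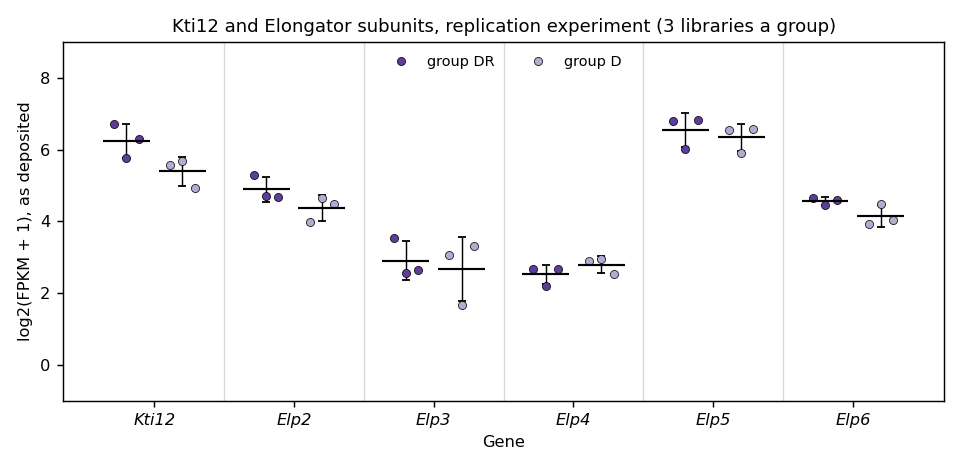
log2(FPKM + 1) of the 6 genes, as deposited, in each library of the groups DR (dark purple) and D (light purple), 3 libraries a group, with the mean (line) and SD (bar). Kti12 and Elp2 are higher in each DR library than in each D library, and the other 4 genes overlap.

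Over all 24 libraries, with log2(FPKM + 1) centred on the mean of each table, the genes whose values followed those of Kti12 most closely among 7438 protein-coding genes were Nipal1, 2310011J03Rik, Mcl1, Mat2a and Bcl2l14, with Pearson's r of 0.980, 0.973, 0.970, 0.968 and 0.967. Nipal1 encodes a magnesium transporter, Mcl1 a protein that blocks apoptosis and Mat2a the enzyme that makes S-adenosylmethionine. Of the subunits Elp6 came nearest to Kti12 (r = 0.899, rank 369), followed by Elp5 (0.857, rank 902) and Elp2 (0.705, rank 2967). Elp3 (0.299) and Elp4 (0.148) lay below the median r of 0.62. The libraries share the α-amanitin treatment and the low values of RAm, so these r describe the libraries and not a relation between the genes.

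Mat2a, named for its r over these same libraries, was at 63.2 ± 17.7 FPKM without and 15.3 ± 8.62 FPKM with α-amanitin in four-cell embryos (SD, n = 3), and at 58.3 ± 23.3 FPKM in NT, 15.4 ± 6.37 in Am, 92.3 ± 5.16 in R and 0.774 ± 1.03 in RAm (n = 3 each). It was at 145 ± 42.2 FPKM in DR and 73.3 ± 21.3 FPKM in D as deposited (n = 3). These groups overlapped, the lowest DR value being 96.6 FPKM and the highest D value 97.4 FPKM. Nipal1 was at 67.2 ± 15.3 and 21.2 ± 18.7 FPKM in four-cell embryos without and with α-amanitin, and at 36.6 ± 21.2 FPKM in NT, 5.13 ± 0.435 in Am, 43.0 ± 3.62 in R and 0.236 ± 0.177 in RAm. Its values of 53.3 to 87.5 FPKM in DR and 44.4 to 61.1 FPKM in D overlapped, unlike those of Kti12.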

How the data were processed

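RNA-seq libraries were made with SMART-seq from pools of NT embryos, and the study states 3 independent biological replicates a group, so p-values measure the spread between pools. The authors filtered the reads with Trimmomatic, trimmed them with Trim Galore and Cutadapt, mapped them to mm10 with STAR and deposited FPKM values; the submitters' processing notes name featureCounts. FPKM were used as deposited in the four-cell table, which lists 0 spike-ins. In the other tables they were divided by the median ratio of the 19 (replication) or 47 (two-cell) ERCC spike-ins found in every library. Each comparison was fitted on log2(FPKM + 1) without pairing (limma 3.58.1, R 4.3.3, trend on the mean level) over all genes that reached 1 FPKM in 3 or more of its libraries, and the Benjamini-Hochberg adjustment covered all of these. A gene was called at an adjusted p under 0.05. Exact permutation tests used scipy 1.17.1. Tables were normalized separately and were not tested against each other. Only 40.8 to 50.8% of values of the replication and the two-cell experiment corresponded to whole reads (to within 0.02 reads), against 100% in the four-cell table; floors and read counts cover counting error only, and PCR duplicates were not removed here. The scripts were tested on simulated data.

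The members and gene lists were chosen with earlier results of these data known, and fits within column sets and their difference were added after the data were seen. Named genes were the members, genes overlapping them, genes of the wobble uridine and diphthamide lists that passed (up to 5 a comparison by p), the 3 other tRNA modification genes with the smallest p in each direction, and the 5 protein-coding genes with the highest r with Kti12. A further 4 columns of the replication table were not used, since their names match no sample, nor was the oryx table, whose identifiers are not paired with gene names, and 1 listed gene is not reported here. In the two-cell experiment the columns named NT, R, Am and RAm were grouped by α-amanitin, because no label ties them to early or late embryos.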

Additional observations from a re-analysis of the deposited data

Results flagged for a closer look

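The fall of 4 genes under α-amanitin differed between the column sets of the two-cell table by the interaction test in limma. It was larger in R and RAm than in NT and Am by 5.85 log2 units for Elp5, 4.56 for Elp6, 4.03 for Kti12 and 1.39 for Elp2. A larger fall there was called, at an adjusted p under 0.05, for 50.5% of all genes tested, and the median difference was 1.42 over all genes. The value of Elp2 was no larger than that median and passed in 4 of 15 alternative settings, and for Kti12 the fall passed the test in each column set. The RAm libraries stand apart in their embryo and oocyte markers, and their part in this difference was not tested.

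Elp3 was at 4.29 FPKM in library RAm3, far from the other 5 two-cell libraries with α-amanitin, which were all at 0. It was the 1 sample that stood out among 12 groups of 6 libraries looked at. Chance flags about 1 in 20 groups with continuous values, a rate that does not apply here, since with 5 libraries at 0 any value above 0 stands out.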

How the results depend on the processing

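With 2 of 6 members called in four-cell embryos, the count was 0 with a pseudocount of 0.1, 1 with no filter on low values, with limma-voom on read equivalents or with median-of-ratios scaling, and 0 to 2 without 1 library. All genes called there numbered 1205, against 732 and 284 with the first and second of these settings and 63 to 1493 without 1 library. Median-of-ratios scaling, which moved the median of all genes from 0.37 to 0.13, gave 761 higher and 223 lower calls against 1093 and 112. Signs turned for Elp2 with that scaling (-0.0386), and among fits without 1 library for Elp4 (0.05 without S15, 0.0738 without S18) and Elp5 (-0.0691 without S8, range to 0.65). Between DR and D 0 members were called in 12 of 12 alternatives. As deposited and with median-of-ratios scaling the differences were 0.86 and 0.81 for Kti12, 0.52 and 0.46 for Elp2, 0.23 and 0.19 for Elp3, 0.21 and 0.15 for Elp5 and 0.42 and 0.36 for Elp6, and without D1 they were 0.53 and 0.20 for Kti12 and Elp3, whose lowest values without 1 library were -2.63 and -2.26. In two-cell embryos 6 members were called, 3 with median-of-ratios scaling (Elp4 at -0.30), 3 in NT and Am alone and 2 there as deposited (Elp5 at -0.0304). All genes called were 12559, 6210, 4316 and 2411 in these settings and 8158 as deposited, with 3770 higher and 2440 lower calls under median-of-ratios scaling and 6694 and 1464 as deposited, against 12278 and 281. The difference between column sets of Elp4 was 0.78, but -0.47 with median-of-ratios scaling. The causes were not tested.

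With the column set and number as a replicate block, 6 members were again called at the two-cell stage, with a log2 change of 4.75 for Kti12. The numbers share only a name, since same-numbered libraries deviated together with r of -0.00437 to 0.0789. In four-cell embryos no label pairs the libraries. A replicate block on adjacent library numbers (S7 with S8, S15 with S16, S17 with S18), chosen after the data were seen, called 2 members and 1107 genes, with an adjusted p of 0.0241 for Kti12 and 0.030 for Elp3 (limma), and these pairs deviated together with r of 0.0274 to 0.1701, over 0.1 in 1 of 3. No paired analysis was possible in the replication experiment because D1 alone among the D columns shares a number with a DR column, and a fit with recipient stage was not run because no column names it. Depth limits low genes most, since Elp3 rests on 0 to 12 reads in treated four-cell libraries and on 0 in Am.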

Other observations

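The genes that overlap the members gave these values. Txndc12, whose intron holds Kti12, was at 7.21 to 12.3 FPKM without and 4.01 to 10.6 FPKM with α-amanitin in four-cell embryos, where the groups overlapped (log2 difference 0.52, adjusted p = 0.495, limma). In two-cell embryos Txndc12 was at 5.37 to 13.3 FPKM in NT and 5.09 to 7.42 FPKM in Am, which overlapped, and at 5.59 to 7.76 FPKM in R and 0.191 to 3.02 FPKM in RAm. Its log2 change was 2.07 over all libraries (adjusted p = 0.000719, limma), and the difference of 1.09 within NT and Am did not pass (adjusted p = 0.0823, limma). Ctdnep1, which shares 70 exonic bases with Elp5 on the opposite strand, was at 3.47 ± 0.179 FPKM in R and 1.46 ± 1.26 FPKM in RAm (SD, n = 3), beside 212 ± 23.4 and 6.73 ± 0.496 FPKM for Elp5. Slc39a6, which overlaps Elp2 outside its exons, was at 12.8 ± 1.57 FPKM in R and 9.09 ± 2.71 FPKM in RAm. These are deposited values, and after spike-in scaling Ctdnep1 and Slc39a6 were called within R and RAm (log2 changes 2.26 and 2.31, adjusted p = 0.00022 and 2.93e-05, limma) and not within NT and Am (0.56 and 0.37, adjusted p = 0.324 and 0.536, limma).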
